A study of Mus musculus with 9 samples.

Results

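The proteasome genes described here are the 45 mouse genes whose symbols run from Psma to Psmg followed by a number, without the interferon-inducible catalytic subunits Psmb8, Psmb9 and Psmb10. They were taken from 19937 genes on a whole-transcript Affymetrix array for mouse, each represented by the array row that named it alone and had the highest mean over the 9 arrays. All 45 symbols of that kind in the RefSeq gene table were found, and no filter on low values was applied. By role they comprised 7 genes of the 20S alpha ring, 7 of the 20S beta ring, 6 ATPases and 11 non-ATPase subunits of the 19S particle, 4 assembly chaperones of the 20S core, 3 of the 19S particle, 4 activators, 1 inhibitor, and Psma8 and Psmb11, paralogs known from testis and thymus.

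The arrays covered 3 stages of reprogramming, with 3 arrays each. Cells of every group carried the OG2-GFP/Rosa26-M2rtTA background, an Oct4 reporter together with a doxycycline-dependent activator. Fibroblasts at passage 4 came from mice made with TSKM-iPS cells, in which doxycycline switches on Tet1, Sox2, Klf4 and c-Myc. TSKM-3D cells were such fibroblasts at passage 4 after 3 days of doxycycline, begun together with a switch to embryonic stem cell medium, so the factors and the medium cannot be told apart. The iPS cells, at passages 10 to 15, were labelled as a cell line made with the same factors and had grown with LIF on inactivated embryonic feeder fibroblasts, which were to be cleared by a short plating step. Separate cultures for the arrays of a group are not mentioned, and p-values therefore reflect only array-to-array spread, possibly technical. Fibroblast array 3 carries a conflicting label: induced cells by cell type, but fibroblasts by title and source, with no doxycycline in its passage label. It was kept as fibroblast.

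The proteasome is the protease that degrades most ubiquitin-tagged proteins of the cell. Its barrel-shaped 20S core has outer alpha rings, which gate entry, and inner beta rings, in which Psmb5, Psmb6 and Psmb7 encode the cutting subunits. The 19S particle caps the barrel, binds the ubiquitin chain, unfolds the substrate with a ring of ATPases and feeds it into the core, and other activators can dock in its place. Because the subunits are built in at fixed ratios, their genes are often described as regulated together, among others by the transcription factor Nfe2l1. Pluripotent stem cells are known for high proteasome activity, and the lid subunit Psmd11 has been tied to it.

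Values are log2 expression values as deposited, so a difference of 1 is a 2-fold change. Because rows differ in how well they bind, differences are taken between groups within a gene. Levels of different genes are set against each other only to sort genes as brighter or dimmer. A gene is called higher or lower when its adjusted p is under 0.05 (limma, Benjamini-Hochberg over all 19937 genes), and calls of at least 2-fold are named as such. The mean over 8 fibroblast markers lay at 11.51 to 11.57 on fibroblast arrays, 9.24 to 9.31 on TSKM-3D arrays and 8.42 to 8.60 on iPS arrays, and that over 9 pluripotency markers at 5.08 to 5.15, 5.47 to 5.79 and 11.36 to 11.43. Of the fibroblast markers 6 were lower and 1 higher at TSKM-3D than in fibroblasts, and 8 lower in iPS cells than in fibroblasts. Col1a2 was the higher one (0.60, adjusted p = 0.000881), Col1a1 differed by 0.11 with no call and still read 11.20 to 11.71 on iPS arrays, and Dcn was higher in iPS cells than at TSKM-3D by 1.45. Of 8 macrophage markers 6 were lower at TSKM-3D than in fibroblasts, and 6 were lower and 1 higher in iPS cells than in fibroblasts, with list means of 6.86 to 6.998, 5.59 to 5.69 and 5.99 to 6.05, and Ptprc and Adgre1 were dim on all 9 arrays. Of 5 proliferation markers 3 were lower at TSKM-3D than in fibroblasts and 5 were higher in iPS cells than at TSKM-3D. The part of these cell types and of proliferation in the results below was not tested.

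The proteasome genes did not move as a block. Over the first step, from fibroblasts to TSKM-3D, 15 of 45 were higher and 13 lower, where 19.2% of all genes were higher and 25.3% lower by the same rule. Over the second step, from TSKM-3D to iPS cells, 17 were higher and 5 lower, against 22.3% and 23.2% of all genes. Over the whole course 19 were higher in iPS cells than in fibroblasts and 14 lower, against 25.5% and 29.1%. Few changes were large. At least 2-fold changes numbered 2 higher and 2 lower in the first step, where 3.25% and 7.58% of all genes passed, 1 higher and 0 lower in the second, where 6.48% and 8.57% passed, and 4 higher and 3 lower over the whole course, where 7.63% and 13.8% passed. In RNA from a whole culture, fewer cells of a type and less RNA per cell cannot be told apart.

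Of the 45 genes 42 lay at or above the median level of all genes, so the 9969 genes at or above that level are another background. Of these, 25.5% were higher and 41.4% lower in the first step, 30.7% and 38.4% in the second, and 29.6% and 47.8% over the whole course. The 42 brighter proteasome genes had 12 higher and 13 lower, then 16 higher and 4 lower, and over the whole course 17 higher and 14 lower. By at least 2-fold, 5.34% of the brighter genes were higher and 12.5% lower in the first step, 8.82% and 15.4% in the second and 10.6% and 24.1% over the whole course. The median difference of the 45 genes was 0.08 in the first step, 0.11 in the second and 0.13 over the whole course, beside medians of 0.05, -0.01 and 0.05 over all genes. With array medians set equal the counts of higher and lower proteasome genes became 18 and 12 in the first step and 21 and 10 over the whole course, and with quantile normalization 22 and 12 in both. The shares of all genes called higher and lower moved too, to 32.4% and 21.9% in the first step and 34.3% and 26.6% over the whole course with array medians set equal, and to 20.4% and 23.6%, and 23.7% and 32.6%, with quantile normalization. Without fibroblast array 3, whose labels disagree, they were 15 and 12 in the first step and 18 and 12 over the whole course.

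**Figure D1:**
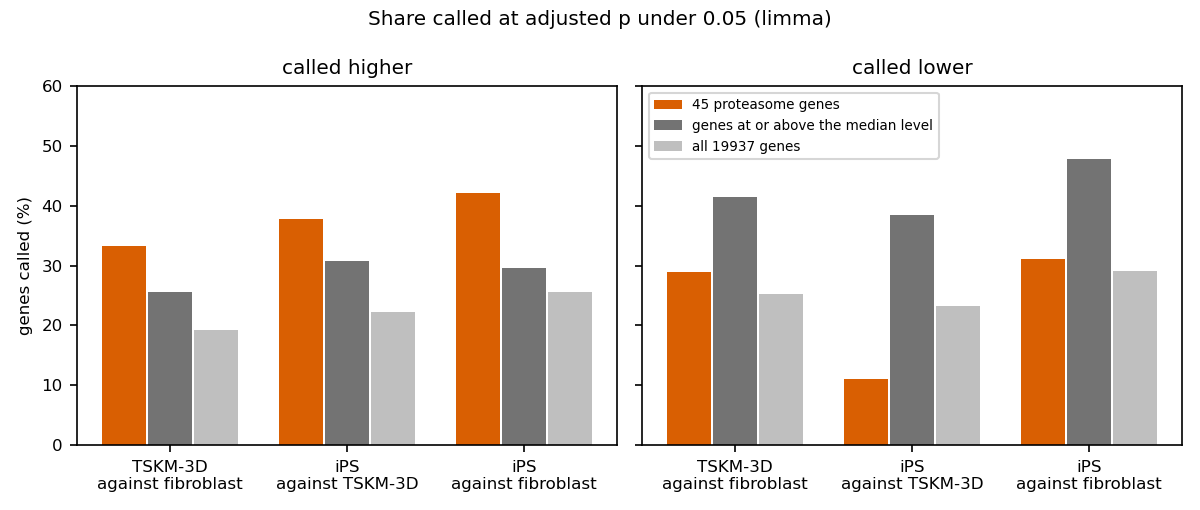
Share of genes, in percent, called higher (left) or lower (right) at adjusted p under 0.05 in limma for the 45 proteasome genes, the genes at or above the median level and all 19937 genes, in the 3 comparisons. Falls from TSKM-3D to iPS cells were called for 11.1% of the proteasome genes, 38.4% of the brighter genes and 23.2% of all genes.

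Taking the steps together, 36 of the 45 genes were called in at least 1 of the 3 comparisons and 9 in none. In the single comparisons 17, 23 and 12 of the 45 had no call, beside 11051, 10849 and 9054 of all 19937 genes. Among the 9969 brighter genes 3295, 3078 and 2252 had none. The joint patterns were not counted over all genes, so they describe these genes and are not a trait particular to them. Psma2, Psma4, Psma8, Psmc2, Psmc3 and Psme1 were higher in both steps. Of the others higher in the first step, 6 had no call in the second (Psma5, Psmb11, Psmc1, Psmc5, Psmc6 and Psmd12) and 3 were lower in it (Psma7, Psmd6 and Psmg3). Of the genes lower in the first step, 7 had no call in the second (Psma6, Psmb2, Psmb5, Psmd2, Psme2, Psme3 and Psmg4) and 6 were higher in it (Psmb3, Psmb4, Psmc4, Psmd13, Psmd5 and Psmf1). Psmb6, Psmd3, Psmd4, Psmd11 and Psmg1 were higher in the second step alone, and Psma3 and Psmd10 lower in it alone. For Psma3 the step depends on the row used, as described with the alpha ring. No gene was lower in both steps. The steps share the TSKM-3D arrays, so an array error there would push a gene in opposite directions.

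**Figure D2:**
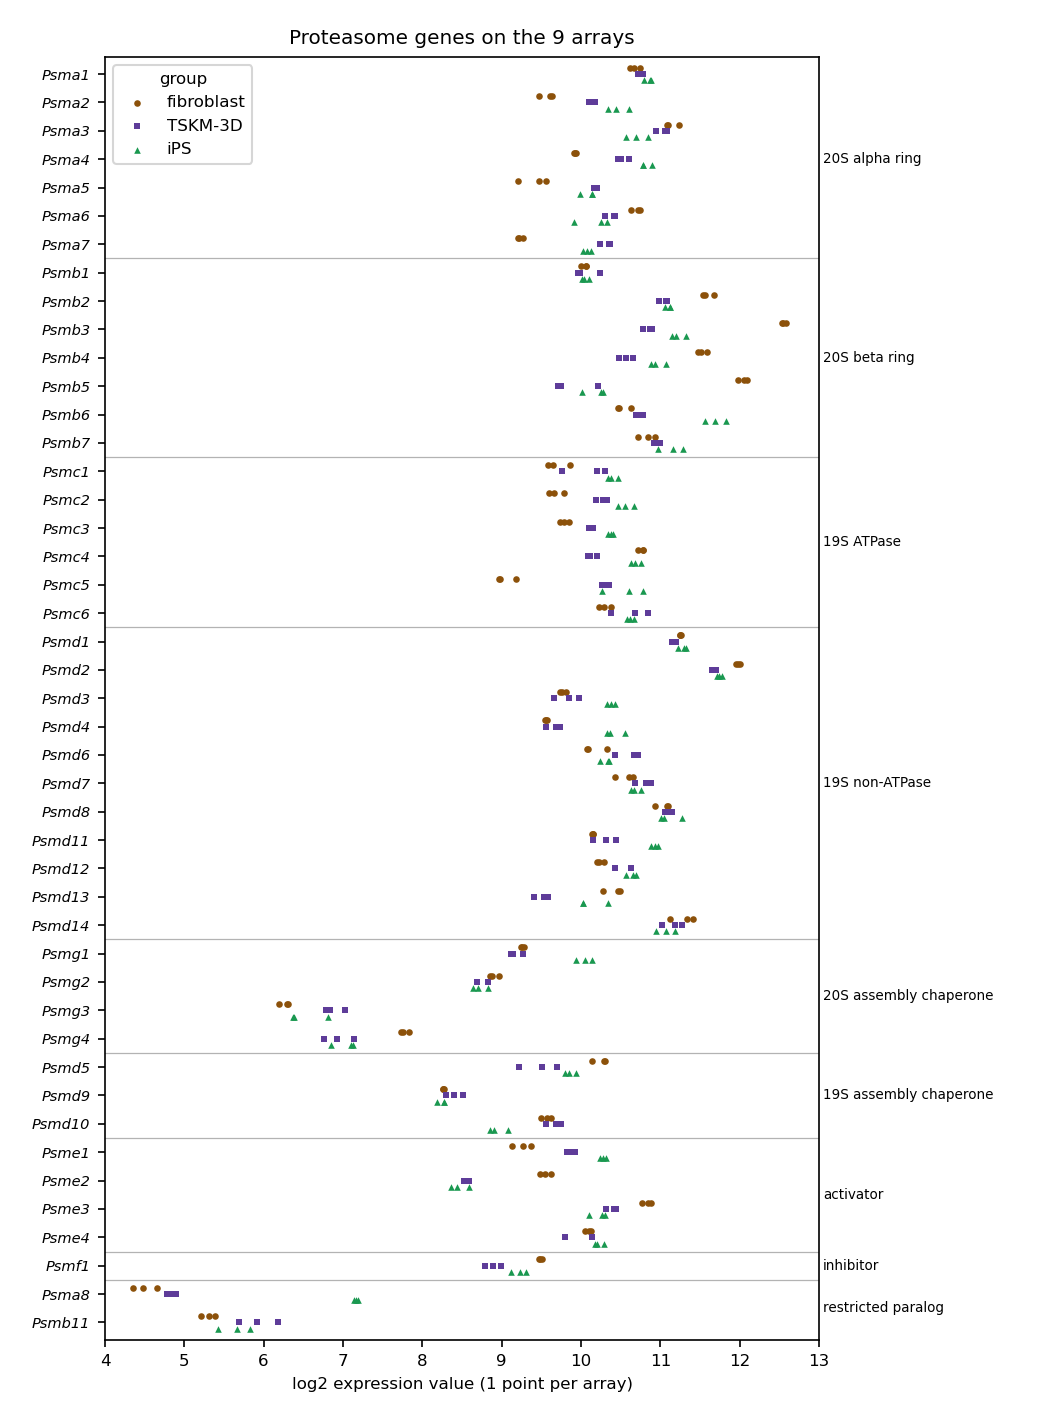
Log2 expression value of the 45 proteasome genes (rows, grouped by role) on the 9 arrays, 1 point per array, with circles for fibroblasts, squares for TSKM-3D and triangles for iPS cells. Psmb3 and Psmb5 stand apart in fibroblasts, at 11.98 or above on every fibroblast array and at 11.33 or below elsewhere, and Psma8 stands apart in iPS cells at 7.13 to 7.19.

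The beta ring held the largest falls and, in Psmb6, a rise of its own. Psmb5 encodes the chymotrypsin-like catalytic subunit, the main target of proteasome inhibitor drugs. It read 12.10, 12.05 and 11.98 in fibroblasts, 9.71, 10.22 and 9.75 at TSKM-3D and 10.02, 10.27 and 10.25 in iPS cells. The fibroblast arrays lay far above all others, and the TSKM-3D and iPS arrays overlapped. Psmb5 thus fell by 2.15 ± 0.13 (SE) in the first step, 4.45-fold (n = 3 per group; limma adjusted p = 1.11e-07), and its second-step difference of 0.29 ± 0.13 was not called (adjusted p = 0.0948). Psmb6, the caspase-like catalytic subunit, read 10.48, 10.62 and 10.47, then 10.70, 10.77 and 10.78, then 11.83, 11.69 and 11.57. Its iPS arrays stood above all others. The second-step rise was 0.95 ± 0.09, 1.93-fold (adjusted p = 2.24e-06), after a first-step difference of 0.23 ± 0.09 that was not called (adjusted p = 0.0532). Psmb7, the trypsin-like subunit, read 10.93, 10.72 and 10.85, then 10.997, 10.92 and 10.98, then 10.98, 11.16 and 11.29, and was called only over the whole course, by 0.31 ± 0.09 (adjusted p = 0.0141). That call was lost without fibroblast array 2 (0.25, adjusted p = 0.0702) and without iPS array 3 (0.24, adjusted p = 0.0629).

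Relative to each other within an array, the catalytic genes also shifted. The log2 ratio of Psmb6 to Psmb5 was higher at TSKM-3D than in fibroblasts by 2.38 ± 0.16 (SE, n = 3 per group) and higher in iPS cells than in fibroblasts by 3.04 ± 0.16, an 8.20-fold change. Groups did not overlap in either comparison, and the exact two-sided permutation p of 0.1 is the smallest that 3 arrays against 3 can give. The ratio of Psmb7 to Psmb5 changed by 2.29 ± 0.20 in the first step and by -0.11 ± 0.19 in the second (exact two-sided permutation p = 0.1 and 0.6). A ratio within an array shows unequal change of the 2 rows and does not say which of them changed.

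Of the structural beta subunits Psmb2, Psmb3 and Psmb4 fell as well, and Psmb3 and Psmb4 regained part of the fall. Psmb3 read 12.59, 12.54 and 12.55 in fibroblasts, 10.78, 10.87 and 10.89 at TSKM-3D and 11.33, 11.20 and 11.15 in iPS cells, so no groups overlapped. It fell by 1.71 ± 0.08 (adjusted p = 1.14e-08) and then rose by 0.38 ± 0.08 (adjusted p = 0.00134). A second row listing the same Psmb3 transcript followed the same course, at 11.99 to 12.13, 10.30 to 10.36 and 10.86 on all 3 iPS arrays to 2 decimals. Psmb4 went from 11.48, 11.52 and 11.58 to 10.48, 10.65 and 10.57 and on to 11.07, 10.93 and 10.88, a fall of 0.96 ± 0.08 followed by a rise of 0.39 ± 0.08. Psmb2 fell by 0.54 ± 0.07 in the first step, and its second-step difference was 0.05 ± 0.07. For Psmb1 all 3 differences lay between -0.01 and 0.02 and none was called. In all, 4 of the 7 beta ring genes were lower and 0 higher in the first step (limma), with 1 higher, Psmb6, at an unadjusted p under 0.05. By the adjusted rule 25.3% of all genes were lower and 19.2% higher in that step. Among the brighter genes 41.4% were lower and 25.5% higher.

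The upstream sequences of Psmb5 and Psmb6 are shown because these catalytic genes moved apart and each holds, in the 250 bases before its start, 1 match to the core of the antioxidant response element. That element, searched as TGACNNNGC on both strands, is bound by Nfe2l1 and Nfe2l2. The sequences are from RefSeq (GRCm38.p6), chr14:54617996-54618245 on the minus strand for Psmb5 and chr11:70525107-70525356 on the plus strand for Psmb6, written 5′ to 3′ up to the base before the start, with the match in capitals.
Psmb5: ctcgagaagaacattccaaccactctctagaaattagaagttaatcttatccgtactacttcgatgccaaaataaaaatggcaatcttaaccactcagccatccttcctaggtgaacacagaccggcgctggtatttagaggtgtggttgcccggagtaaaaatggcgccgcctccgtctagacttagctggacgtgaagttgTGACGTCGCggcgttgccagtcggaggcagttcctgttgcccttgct
Psmb6: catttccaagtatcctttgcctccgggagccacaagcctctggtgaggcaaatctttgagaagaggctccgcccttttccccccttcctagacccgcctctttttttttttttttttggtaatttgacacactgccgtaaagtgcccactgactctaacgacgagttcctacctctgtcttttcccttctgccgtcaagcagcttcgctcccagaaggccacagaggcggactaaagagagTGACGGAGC
The match lies 47 to 39 bases before the start in Psmb5 and 9 to 1 bases before it in Psmb6. Promoter sequences were matched for 37 of the 45 genes, and Psma8, Psmb1, Psmb2, Psmb7, Psmc3, Psmd3, Psmd7 and Psmg2 had no entry. From 250 bases before to 50 after the start, 6 of the 37 (16.2%) held this core (Psmb5, Psmb6, Psmc6, Psmd9, Psmd12 and Psme4), beside 15.2% of 15562 measured genes with a promoter entry and 12.4% of all 32851 promoters. The E-box CACGTG, a site of the introduced c-Myc, was present in 3 of 37 (8.11%), against 9.52% of genes and 7.15% of promoters. The CCAAT box, searched as CCAAT on both strands, was present in 13 (35.1%), against 41.7% of genes and 37.4% of promoters. The motifs differ in letters, and overlaps between them were not removed. All 3 shares lie near their backgrounds, and a match is a description of letters, not of binding.

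The alpha ring went mostly the other way. In the first step 4 of 7 genes were higher and 1 lower, and over the whole course 4 were higher and 2 lower. Psma7, which encodes the subunit that Psma8 can replace, read 9.22, 9.21 and 9.27 in fibroblasts, 10.35, 10.23 and 10.37 at TSKM-3D and 10.07, 10.02 and 10.13 in iPS cells. All later arrays lay above the fibroblast arrays. It rose by 1.09 ± 0.07 in the first step (2.12-fold, adjusted p = 2.56e-07). Its fall by 0.24 ± 0.07 in the second (adjusted p = 0.016) was lost without TSKM-3D array 1 (-0.23, adjusted p = 0.0548) or iPS array 2 (-0.22, adjusted p = 0.0529). Psma5 rose by 0.78 ± 0.10 and had no call in the second step. A second Psma5 row, at 9.32 to 9.49, then 9.86 to 10.01, then 9.66 to 10.07, was also above the fibroblast values at both later stages. Psma2 and Psma4 climbed in both steps, Psma2 by 0.55 ± 0.09 and 0.34 ± 0.09 and Psma4 by 0.60 ± 0.07 and 0.30 ± 0.07.

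Against them, Psma6 fell by 0.32 ± 0.10 in the first step and was lower in iPS cells than in fibroblasts by 0.54 ± 0.10. The first-step call was lost when TSKM-3D array 1 or 2 or fibroblast array 2 or 3 was left out, at -0.33 to -0.28 with adjusted p of 0.0543 to 0.0901, and under both other scalings, at -0.22 with medians set equal (adjusted p = 0.121) and -0.18 with quantile normalization (adjusted p = 0.165). Psma3 was lower in iPS cells than in fibroblasts by 0.44 ± 0.09. It is the member with the most rows, 3, which list the same transcript, so copies of the gene may share its signal. With its rows averaged, the second-step call of -0.33 ± 0.09 became -0.22 (adjusted p = 0.079). With rows averaged, 14 rather than 13 proteasome genes were lower in the first step. Of the Psma3 rows not used, the brighter read 10.19 to 10.56, then 10.11 to 10.40, then 9.95 to 10.04. The dimmer read 9.38 to 9.62, then 8.49 to 9.02, then 8.61 to 8.96, so its fall lay in the first step. Psma1, with differences of 0.08, 0.09 and 0.17, was called in no comparison.

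Psma8 showed the largest difference of any proteasome gene. Its product, known as the alpha subunit of the testis form, read 4.35, 4.48 and 4.66 in fibroblasts, 4.89, 4.82 and 4.79 at TSKM-3D and 7.13, 7.17 and 7.19 in iPS cells. The iPS arrays lay far above the others, while the earlier readings lay below the array medians of 6.57 to 6.74 and are dim, so the size of the rise is uncertain. It rose by 2.33 ± 0.09 in the second step (5.03-fold, adjusted p = 1.38e-09) and by 2.66 ± 0.09 over the whole course. The first-step difference of 0.33 ± 0.09 (adjusted p = 0.00829) lies among these dim readings and was not called after quantile normalization (0.22, adjusted p = 0.0668). With genes below the median level left out before the fit, Psma8 was not tested, and 0 genes rose by at least 2-fold in the second step. Psmb11, the catalytic beta subunit known from the thymus cortex, stayed dim throughout, at 5.21 to 5.38, 5.69 to 6.18 and 5.42 to 5.82. It was called higher by 0.63 ± 0.13 in the first step, and its whole-course call (0.34 ± 0.13, adjusted p = 0.0494) was lost without any 1 of 6 arrays (fibroblast 1, 2 or 3, TSKM-3D 1, iPS 2 or 3), at adjusted p of 0.067 to 0.185, with quantile normalization (0.14, adjusted p = 0.335) and with the variance prior following the mean level (adjusted p = 0.0545).

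**Figure D3:**
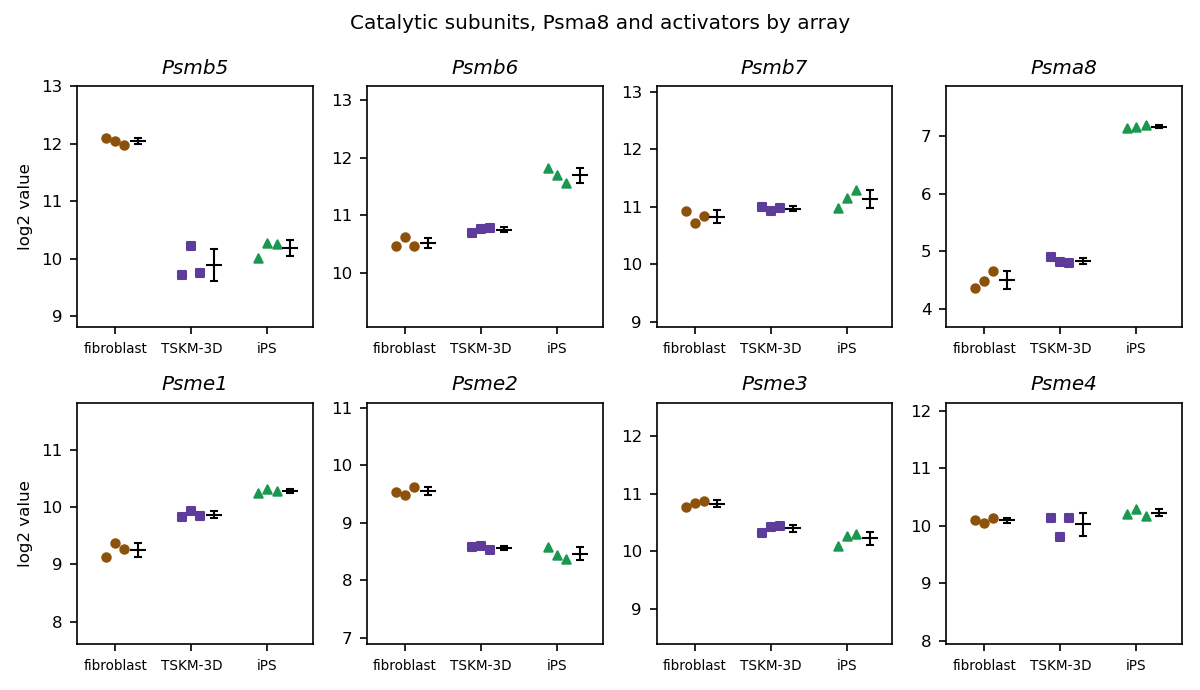
Log2 value by array of the catalytic subunits Psmb5, Psmb6 and Psmb7, the paralog Psma8 and the activators Psme1 to Psme4, 1 point per array with the mean and SD (n = 3) beside it, each panel spanning the same range of log2 units. Psmb5 drops at TSKM-3D, Psmb6 and Psma8 rise in iPS cells, and Psme1 and Psme2 move in opposite directions.

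The activators changed in opposite directions, within a pair whose products work as 1 particle. Psme1 and Psme2 encode the alpha and beta subunits of the interferon-inducible PA28 ring, which docks on the 20S core without ATP or ubiquitin. Psme1 read 9.13, 9.37 and 9.27, then 9.82, 9.93 and 9.85, then 10.24, 10.31 and 10.28, with no overlap between groups. It rose by 0.61 ± 0.08 in the first step (adjusted p = 6.73e-05) and by 0.41 ± 0.08 in the second (adjusted p = 0.00117), 2.03-fold over the whole course. Psme2 read 9.54, 9.49 and 9.62, then 8.58, 8.59 and 8.52, then 8.58, 8.43 and 8.37, with the fibroblast arrays above all others. It fell by 0.98 ± 0.08 in the first step (adjusted p = 1.25e-06) and by 1.09 ± 0.08 over the whole course. The log2 ratio of Psme1 to Psme2 was higher at TSKM-3D than in fibroblasts by 1.59 ± 0.10 and higher in iPS cells than in fibroblasts by 2.11 ± 0.12, with groups apart in both cases (exact two-sided permutation p = 0.1, the smallest possible). Another row names Psme2 together with its copy Psme2b and was not used, so part of the Psme2 signal may come from that copy.

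The upstream sequences of the Psme1 and Psme2 genes, again from RefSeq (GRCm38.p6), are given for this pair because it moved apart. They lie at chr14:55578244-55578493 on the plus strand and chr14:55591102-55591351 on the minus strand, the second being the first of 2 listed promoters of Psme2. Neither holds a match to the antioxidant response element core, the E-box or the CCAAT box, so no letter is in capitals.
Psme1: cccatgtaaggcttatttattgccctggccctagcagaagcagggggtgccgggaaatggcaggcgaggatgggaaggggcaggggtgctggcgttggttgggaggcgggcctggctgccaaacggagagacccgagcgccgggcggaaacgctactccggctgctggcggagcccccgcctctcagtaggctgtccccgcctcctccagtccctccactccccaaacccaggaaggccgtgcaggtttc
Psme2: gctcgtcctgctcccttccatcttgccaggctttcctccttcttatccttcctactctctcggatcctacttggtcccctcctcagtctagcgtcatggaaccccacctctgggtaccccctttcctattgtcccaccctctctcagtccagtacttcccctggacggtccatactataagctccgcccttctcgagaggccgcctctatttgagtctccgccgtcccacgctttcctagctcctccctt
These windows show no match to the letters searched, which says nothing about the factors themselves. Of the 8 macrophage markers 6 were called lower at TSKM-3D than in fibroblasts and 6 lower in iPS cells than in fibroblasts, as Psme2 was. Cd68 went the other way, with a difference of 0.18 at TSKM-3D that was not called and a level in iPS cells 4.30-fold that in fibroblasts (limma adjusted p = 1.39e-09). The part of such cells in the Psme2 difference was not tested.

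Of the other activators, Psme3, the nuclear PA28 gamma subunit, fell by 0.43 ± 0.08 in the first step and was lower by 0.61 ± 0.08 over the whole course, from 10.77 to 10.88 in fibroblasts to 10.10 to 10.31 in iPS cells. Psme4, which encodes the large activator PA200, had differences of -0.07, 0.20 and 0.13 and was called in no comparison. Psmf1 encodes PI31, first described as a proteasome inhibitor. It read 9.47, 9.48 and 9.51 in fibroblasts, 8.89, 8.79 and 8.99 at TSKM-3D and 9.11, 9.24 and 9.31 in iPS cells, falling by 0.59 ± 0.08 and then rising by 0.33 ± 0.08. Its groups did not overlap. The whole-course call (-0.26 ± 0.08, adjusted p = 0.0163) was lost without fibroblast array 3 (-0.25, adjusted p = 0.0552) or iPS array 1 (-0.21, adjusted p = 0.0571), with array medians set equal (-0.18, adjusted p = 0.13) and with quantile normalization (-0.12, adjusted p = 0.169).

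In the ATPase ring of the 19S particle most genes were called higher. In the first step 5 of its 6 genes were higher and 1 lower. The shares were 19.2% and 25.3% of all genes, and 25.5% and 41.4% of the brighter genes. The first-step calls of Psmc1 and Psmc6 were lost under some alternatives, as given below. From fibroblasts to iPS cells 5 were higher and 0 lower (limma; also 0 lower at an unadjusted p under 0.05). There the shares were 25.5% and 29.1% of all genes, and 29.6% and 47.8% of the brighter genes. Psmc5 changed most. It read 8.96, 8.97 and 9.19 in fibroblasts, 10.35, 10.27 and 10.32 at TSKM-3D and 10.27, 10.60 and 10.78 in iPS cells, all later arrays standing above the fibroblast arrays. It rose by 1.27 ± 0.12 in the first step (2.42-fold, adjusted p = 4.18e-06), and by 1.51 ± 0.12 over the whole course. Psmc2 rose by 0.58 ± 0.09 and then by 0.30 ± 0.09, and Psmc3 by 0.33 ± 0.07 and then by 0.25 ± 0.07. Psmc1 and Psmc6 were called higher by 0.38 ± 0.13 and 0.34 ± 0.11 in the first step. The Psmc1 call was lost without fibroblast array 1 or 2, TSKM-3D array 1 or 3, or iPS array 1 (0.27 to 0.38, adjusted p = 0.0504 to 0.122), and the Psmc6 call without fibroblast array 1 or 2 or TSKM-3D array 1 or 3 (0.24 to 0.34, adjusted p = 0.0663 to 0.09). With only the 2 groups compared in the fit both first-step calls were also lost, at adjusted p of 0.0759 for Psmc1 and 0.056 for Psmc6. Over the whole course Psmc1 was higher by 0.69 ± 0.13. A second Psmc1 row read 9.52 to 9.77 in fibroblasts, 9.99 to 10.14 at TSKM-3D and 10.02 to 10.15 in iPS cells. On that row all later arrays lay above the fibroblast arrays, and the TSKM-3D and iPS arrays overlapped. The whole-course call of Psmc6, at 0.32 ± 0.11, was lost without fibroblast array 1 or 2 or iPS array 1 or 3 (0.29 to 0.33, adjusted p = 0.0586 to 0.0917).

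Psmc4 was the exception in this ring. It read 10.78, 10.72 and 10.78, then 10.09, 10.11 and 10.21, then 10.63, 10.75 and 10.68, so that the TSKM-3D arrays alone lay low. It fell by 0.62 ± 0.07 and rose again by 0.55 ± 0.07 (adjusted p = 2.23e-05 and 5.01e-05), leaving a whole-course difference of -0.07 ± 0.07.

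The non-ATPase subunits of the 19S particle belong to its lid and to part of its base. In the first step 7 of 11 genes had no call, beside 11051 of all 19937 genes and 3295 of the 9969 brighter genes. Called higher were 2 (Psmd6 and Psmd12) and lower 2 (Psmd2 and Psmd13), where 19.2% of all genes were higher and 25.3% lower. In the second step 4 were higher and 1 lower, against 22.3% and 23.2% of all genes. Psmd4 encodes the ubiquitin receptor Rpn10. It read 9.54, 9.56 and 9.57 in fibroblasts, 9.56, 9.69 and 9.73 at TSKM-3D and 10.55, 10.36 and 10.33 in iPS cells, where all arrays were higher than any other. Its second-step rise was 0.75 ± 0.08 (adjusted p = 1.17e-05). Psmd11, the lid subunit named above, read 10.16, 10.15 and 10.14, then 10.31, 10.15 and 10.44, then 10.96, 10.94 and 10.88, rising by 0.63 ± 0.08 in the second step (adjusted p = 5.85e-05) after a first-step difference of 0.15 ± 0.08. Psmd3, another lid subunit, rose by 0.56 ± 0.09 in the second step.

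Psmd13, also of the lid, dipped. It went from 10.28, 10.49 and 10.47 to 9.53, 9.41 and 9.58 and back to 10.34, 10.02 and 10.02, a fall of 0.90 ± 0.10 followed by a rise of 0.62 ± 0.10. Only the TSKM-3D arrays stood apart. The remaining whole-course difference of -0.28 ± 0.10 (adjusted p = 0.0396) was lost without fibroblast array 2 or 3, TSKM-3D array 1 or iPS array 2 or 3 (-0.28 to -0.23, adjusted p = 0.0544 to 0.135), under both other scalings and under the replicate block (adjusted p = 0.0599). Psmd6 rose by 0.44 ± 0.10 in the first step, and its fall by 0.30 ± 0.10 in the second was lost without TSKM-3D array 1 or 3 or any iPS array (-0.32 to -0.24, adjusted p = 0.0507 to 0.0936). Psmd12 rose by 0.32 ± 0.08 and Psmd2 fell by 0.30 ± 0.07 in the first step, and a second Psmd2 row went from 11.83 on each fibroblast array to 11.53 to 11.55. The whole-course call of Psmd2 was lost with array medians set equal (-0.15, adjusted p = 0.105). Psmd1, Psmd7, Psmd8 and Psmd14, the last encoding the deubiquitinase Rpn11, were called in no comparison, with whole-course differences of 0.03, 0.12, 0.07 and -0.22.

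**Figure D4:**
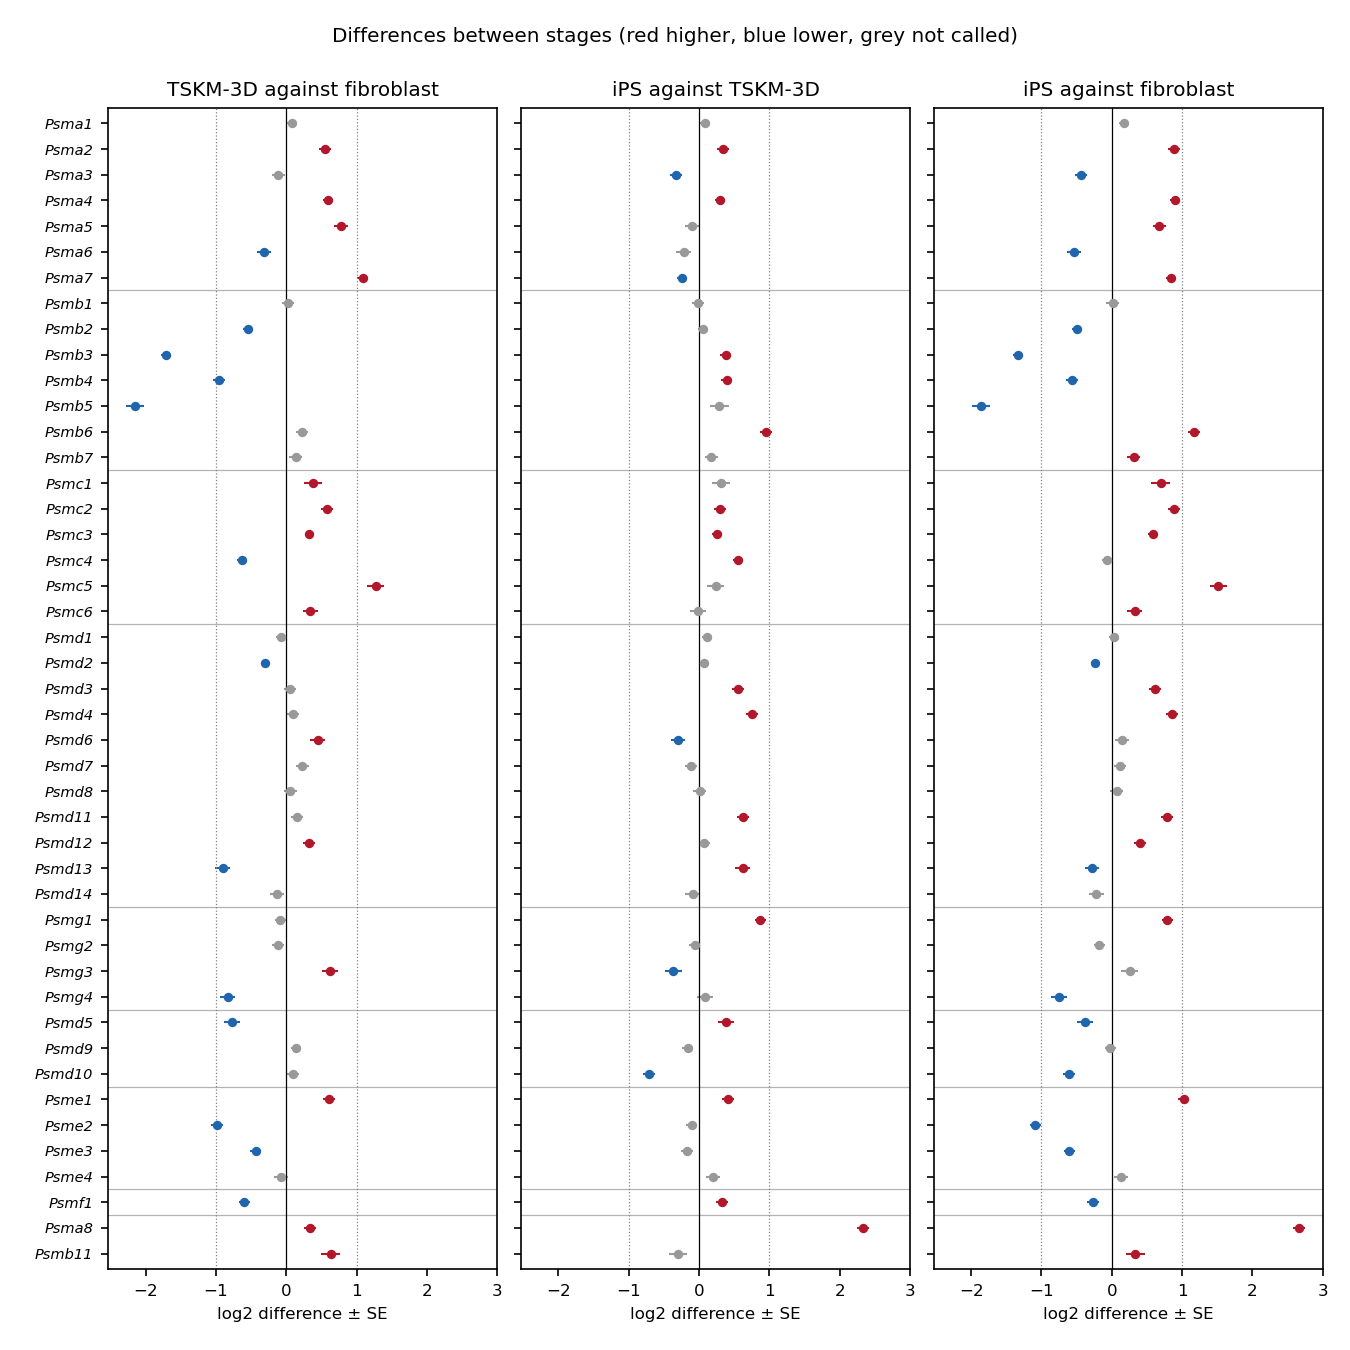
Log2 difference ± SE from limma for the 45 proteasome genes (rows, in the order of the plot of levels) in the 3 comparisons, with genes called higher in red, called lower in blue and not called in grey, and dotted lines at 2-fold. Most beta ring genes lie left of 0 and most ATPases right of 0 in the first step, and few genes are blue in the second.

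The assembly chaperones split too. These proteins help to build the rings and are absent from the finished particle. Psmg1, which pairs with Psmg2 in alpha ring assembly, read 9.24, 9.28 and 9.25, then 9.12, 9.14 and 9.27, then 10.14, 10.05 and 9.94. The iPS arrays were the high ones, and the second-step rise was 0.87 ± 0.08 (1.83-fold, adjusted p = 2.18e-06). Its partner Psmg2 had differences of -0.12, -0.06 and -0.18 and was called in no comparison. Psmg4 fell from 7.76, 7.73 and 7.83 to 6.93, 7.14 and 6.75 in the first step, by 0.83 ± 0.11, and stayed near that level at 7.10, 6.84 and 7.13. Psmg3, which pairs with Psmg4, rose in the first step from 6.19 to 6.30 in fibroblasts to 6.79 to 7.02, by 0.62 ± 0.12. The second-step fall of Psmg3 by 0.37 ± 0.12 was lost without TSKM-3D array 2 or iPS array 2 or 3 (-0.30 to -0.29, adjusted p = 0.0747 to 0.105) and with only the 2 groups compared in the fit (adjusted p = 0.0602).

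Among the chaperones of the 19S base, Psmd10, also known as gankyrin, read 9.62, 9.58 and 9.49, then 9.68, 9.56 and 9.75, then 9.08, 8.86 and 8.90. The iPS arrays lay below all others, with a second-step fall by 0.72 ± 0.09 (adjusted p = 2.56e-05), the largest fall of that step among the 45 genes. Psmd5 went from 10.13, 10.31 and 10.29 to 9.51, 9.22 and 9.70 and then to 9.94, 9.79 and 9.85, a fall of 0.77 ± 0.11 followed by a rise of 0.38 ± 0.11. That rise was lost without iPS array 1 (0.35, adjusted p = 0.0587). The whole-course call of Psmd5 (-0.38 ± 0.11, adjusted p = 0.0129) was lost without fibroblast array 2 (-0.35, adjusted p = 0.0505) and with array medians set equal (-0.30, adjusted p = 0.0603). Psmd9 had differences of 0.14, -0.16 and -0.02 and was called in no comparison.

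The 5 calls of falling genes in the second step (Psma3, Psma7, Psmd6, Psmd10 and Psmg3) depended partly on single arrays. They numbered 3 without TSKM-3D array 1 and 2 without iPS array 2, and 2 genes instead of 1 rose by at least 2-fold without iPS array 3. Without iPS array 2 the median second-step difference of the 45 genes was 0.17. Of the 5 falls only that of Psmd10 held under every alternative, and those of Psma3, Psma7, Psmd6 and Psmg3 were each lost in some. Counting rises and falls together, 24 of the 28 calls of the first step held under every alternative that fitted the gene. So did 17 of the 22 of the second step and 26 of the 33 of the whole course.

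Genes that act with the proteasome were counted from a list of partners, of which 20 were measured by a row of their own. In the first step 6 were higher and 9 lower. The shares were 19.2% and 25.3% of all genes, and 25.5% and 41.4% of the brighter genes. In the second step 4 were higher and 6 lower, against 22.3% and 23.2%, and 30.7% and 38.4%. From fibroblasts to iPS cells the counts were 8 and 9, against 25.5% and 29.1%, and 29.6% and 47.8%. A difference between the partners and these backgrounds was not tested. Pomp encodes the chaperone that completes the beta ring. It read 9.60, 9.65 and 9.73 in fibroblasts, 11.49, 11.48 and 11.49 at TSKM-3D and 11.34, 11.39 and 11.41 in iPS cells. It rose by 1.83 ± 0.07 in the first step (3.55-fold, adjusted p = 4.71e-09), the step in which 4 of 7 beta ring genes were lower. Sem1, a small lid subunit without a Psmd name, read 9.18, 9.09 and 9.13, then 10.47, 10.28 and 10.53, then 9.71, 9.63 and 9.71, with a rise of 1.29 ± 0.08 and a fall by 0.74 ± 0.08. Of the proteasome-bound deubiquitinases, Uchl5 rose by 0.70 ± 0.10 in the first step, while Usp14 had a first-step difference of 0.12 ± 0.11 and fell by 0.30 ± 0.11 in the second (adjusted p = 0.0416).

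The transcription factor genes that act on proteasome promoters fell. Nfe2l1 read 10.73, 10.58 and 10.54 in fibroblasts, 9.97, 10.04 and 9.97 at TSKM-3D and 10.09, 10.17 and 10.14 in iPS cells, a first-step fall by 0.62 ± 0.08 (adjusted p = 3.29e-05). Nfe2l2, the related factor of the oxidative stress response, fell by 1.07 ± 0.09 (adjusted p = 1.25e-06). Both factors had all later arrays below the fibroblast arrays. Ngly1, the enzyme that removes sugars from Nfe2l1 and so allows its activation, fell in the second step, by 1.43 ± 0.11, from 8.21 to 8.34 at TSKM-3D to 6.65 to 7.11 in iPS cells.

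Other partners past 2-fold stood on both sides. Zfand5, a zinc finger protein that stimulates the proteasome, rose by 1.50 ± 0.11 in the first step, from 9.28 to 9.45 in fibroblasts to 10.64 to 11.06. The arsenite-inducible Zfand2a fell by 2.22 ± 0.07, 4.65-fold, from 10.81 to 10.86 to 8.61 to 8.63, and rose by 0.85 ± 0.07 in the second step. Nploc4, a cofactor of the segregase Vcp, fell by 1.37 ± 0.07 in the first step, while Vcp itself rose by 0.81 ± 0.07. The ubiquitin shuttle gene Ubqln2 fell by 1.23 ± 0.12 and then by 0.62 ± 0.12. For comparison, the interferon-inducible catalytic genes left out above were dim to moderate and split, with whole-course differences of -0.14 ± 0.13 for Psmb8 (not called), 0.89 ± 0.12 for Psmb9 and -0.48 ± 0.13 for Psmb10.

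**Figure D5:**
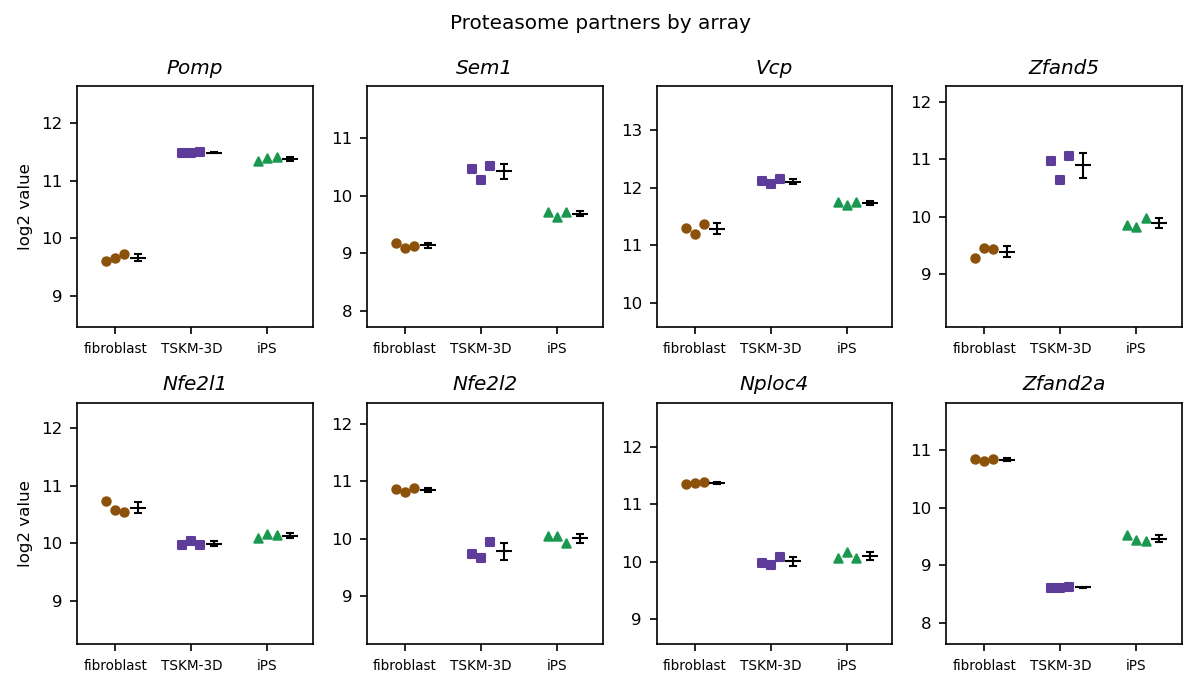
Log2 value by array of 8 genes that act with the proteasome, 1 point per array with the mean and SD (n = 3) beside it, each panel spanning the same range of log2 units. Pomp, Sem1, Vcp and Zfand5 lie higher at TSKM-3D than in fibroblasts, and Nfe2l1, Nfe2l2, Nploc4 and Zfand2a lower.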

How the data were processed

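RNA of 9 cell samples was labelled with biotin by a kit for whole transcripts, per the labels, and hybridised to 1 array each. The values deposited by the authors are on a log2 scale and cover 34760 array rows. Normalization: not given in the sources used here. They were used unchanged. Of the rows, 21640 carry 1 gene symbol in the platform's probe table, 1321 carry several and were not used, and 11799 are unlisted and unnamed here. For a gene with several rows the brightest on average was taken, which left 19937 genes. All 45 proteasome genes matched the GRCm38.p6 gene table, and 5 of them had several rows.

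The 3 groups were fitted together over all genes with limma 3.58.1 in R 4.3.3 (lmFit, eBayes) with no covariate, after a check on simulated data, and p-values were Benjamini-Hochberg adjusted over all genes. Group and replicate came from the titles. The median SD of a proteasome gene within a group was 0.06 in fibroblasts, 0.08 at TSKM-3D and 0.09 in iPS cells, and 3 arrays per group limit the precision. Genes past 2-fold, the largest changes and the fixed list of catalytic, activator and chaperone genes were named with values. These were values per array for some and ranges or differences for others. Further genes were added as examples of their role. Members and lists were chosen with earlier results of these data known. Motifs were searched in the RefSeq promoter table. The alternatives covered scaling, choice of row, a filter on low values, variance model, array weights, groups in the fit, the replicate block and leaving out each array.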

Additional observations from a re-analysis of the deposited data

How the results depend on the processing

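No called proteasome gene changed direction under any of the 17 alternatives. The median difference of the 45 genes moved with scaling in the first step and over the whole course. It was 0.17 in the first step and 0.21 over the whole course with array medians set equal, and 0.21 and 0.17 with quantile normalization. Over the whole course it was 0.0937 with genes below the median level left out. These scalings moved the median of all genes as well, over the whole course from 0.05 to 0.13 and to -0.08. With quantile normalization 7 genes, not 4, were at least 2-fold higher in iPS cells than in fibroblasts, and with genes below the median level left out 0, not 1, in the second step, since Psma8 was then not tested. The causes were otherwise not tested.

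Leaving out 1 array at a time gave 13 to 17 genes higher and 12 to 13 lower in the first step (2 higher and 2 to 3 lower by at least 2-fold, median 0.06 to 0.10). The second step had 17 to 18 higher and 2 to 5 lower (1 to 2 and 0 by at least 2-fold, median 0.10 to 0.17, the highest without iPS array 2, beside 0.09 and 0.07 under the scalings). The whole course had 16 to 20 higher and 12 to 15 lower (3 to 4 and 3 by at least 2-fold, median 0.10 to 0.16). Where this left 2 arrays in a group, the spread was pooled over all groups. Same-numbered arrays correlated at -0.10 to 0.06 in their deviations from group means, and other pairs at -0.13 to 0.13. These values show no pairing by replicate number, but with 3 arrays per group they cannot decide whether arrays were paired. With the replicate block 15 and 13, 18 and 5, and 19 and 13 genes were higher and lower in the 3 comparisons.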

Other observations

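Other multi-subunit complexes on the same arrays gave the following values. As background, 19.2% of all genes were called higher and 25.3% lower in the first step, and 22.3% and 23.2% in the second. Among the brighter genes the shares were 25.5% and 41.4% in the first step and 30.7% and 38.4% in the second. All 8 measured genes of the CCT chaperonin, which folds actin and tubulin, were higher at TSKM-3D than in fibroblasts, with a median difference of 0.49 and Cct8 highest at 1.50 ± 0.07 (2.82-fold, limma adjusted p = 1.33e-08). In the second step 2 of the 8 were higher and 0 lower. Of 9 genes of the COP9 signalosome, whose subunits are related to those of the proteasome lid, limma called 0 higher and 2 lower in the first step, and 1 further gene was higher by an unadjusted p under 0.05 alone. Of 11 measured genes of the translation initiation factor eIF3, which shares the same kind of subunits, 4 were higher and 3 lower in the first step, with Eif3a higher by 1.33 ± 0.08 and Eif3m by 1.13 ± 0.11. The difference between these complexes and the proteasome genes was not tested.

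Genes were also set out by their mean level over the 9 arrays. Of the 7 proteasome genes with a mean of at least 11, 1 had a positive first-step difference, and their median was -0.30, beside -0.04 for all 422 genes of that level. For the 21 proteasome genes with a mean from 10 to below 11, 14 were positive with a median of 0.15, beside -0.05 for 990 genes. In the second step 6 of the 7 and 14 of the 21 were positive. The level is a mean over the same arrays that are compared, so a gene can enter the upper level through 1 group. Psmb4 did so through fibroblasts, with group means of 11.53 in fibroblasts, 10.57 at TSKM-3D and 10.96 in iPS cells. Part of the differences by level is therefore built in by the selection, and no conclusion is drawn from them.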
